A study of Mus musculus with 16 samples.

Results

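Voltage-gated calcium and sodium channels and potassium channels are examined here in preSC, a mouse model of small cell lung cancer at its precancerous stage, with and without added Wnt5a. The genes were chosen by symbol: every Cacna, Cacnb and Cacng gene, every Scn gene ending in a or b, and every Kcn gene other than the Kcnd and Kcnip families. The choice was made with earlier results of these data known. Of 17655 listed genes 115 matched, namely 24 calcium, 14 sodium and 77 potassium channel genes. The 66 with a mean value of at least 10 over the 16 samples are described, 18 calcium, 7 sodium and 41 potassium, and the other 49 were under that minimum. Values are normalised read counts: reads per gene divided by a single factor for each sample.

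The cells are neuroendocrine lung cells positive for Chga, null for Rb1 and Trp53 and with 1 null allele of Rbl2, in both groups. One group of 8 samples carried an empty lentivirus (empty) and the other, also of 8, a lentivirus encoding Wnt5a (Wnt5a), a secreted Wnt ligand. All were kept in RPMI1640 with doxycycline at 1 µg/mL for 48 hours. The comparison asks which RNAs differ when Wnt5a is supplied by a transgene, beside the vector alone. In each group samples 1 to 4, and likewise 5 to 8, differed by little beyond sampling noise. The index of dispersion, 1 for sampling noise alone, was 0.987 to 1.05 for these 24 pairs, with 14 of them at a chi-square p under 0.05, against 5.23 to 5.44 for the other 32 pairs. They were therefore averaged as library A and library B, and n is 2 libraries per group. Nothing in the labels says that the libraries came from separate cultures, so the p-values measure only the spread between them, which may be technical. An exact permutation test of 2 libraries against 2 cannot give a p under 0.333, so limma fitted across 12357 genes was used.

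Voltage-gated channels open when the membrane potential shifts and let calcium, sodium or potassium through a pore. Sodium and calcium channels carry inward current, and calcium entry starts hormone release in neuroendocrine cells. Potassium channels carry outward current and hold or restore the resting potential. In calcium and sodium channels a large alpha subunit holds the whole pore, whereas most potassium channels assemble the pore from several subunits. Accessory subunits, such as the alpha2delta and beta proteins, alter trafficking and gating.

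The pore of a potassium channel is marked by a short selectivity filter, which holds a glycine-tyrosine-glycine or glycine-phenylalanine-glycine stretch. The coding sequence around it is shown for several of the potassium channel genes on which the results turn, because it is the feature they share that the choice by symbol did not use. Sequences are from the coding strand of the longest coding transcript in GENCODE M21 (GRCm38), with positions counted from 1 at the first base of the start codon. Capitals mark the in-frame motif NTNGGNTANGGN (tyrosine form) or NTNGGNTTNGGN (phenylalanine form).
Kcnj11, coding bases 382 to 411: caggtgaccATTGGTTTCGGCgggcgcatg
Kcnj6, coding bases 454 to 483: gaaaccaccATCGGTTATGGCtaccgggtc
Kcnh3, coding bases 1420 to 1449: ctcaccagtGTGGGCTTCGGCaacgtgtcc
Kcnc4, coding bases 1312 to 1341: atgacaacgCTTGGCTATGGGgacatgtat
Kcnk2, first, coding bases 463 to 492: atcacaaccATAGGATTTGGAaacatctcc
Kcnk2, second, coding bases 790 to 819: ctgacgaccATTGGATTTGGAgactacgtg

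Kcnj11 and Kcnh3 have the phenylalanine form, and Kcnj6 and Kcnc4 the tyrosine form. Kcnk2 holds the motif in 2 places, since K2P subunits carry 2 pore stretches in tandem. Only the coding strand was searched, in frame, and the 2 motifs cannot match at the same position. The phenylalanine form as searched also takes leucine codons in place of phenylalanine. Of the 34 described genes for a potassium channel pore subunit, 33 held a match (97.1%), 20 of them in the tyrosine form. Of all 65 matched potassium pore genes with a coding sequence, described or not, 64 held a match (98.5%). On the same footing, the motif was in 6 of 19 matched calcium and sodium channel pore genes (31.6%), never in the tyrosine form. It was in 910 of 15859 listed genes with a coding sequence (5.74%). How many of these matches hold leucine was not counted. Kcnk1 was the described potassium pore gene without a match, which says only that these letters are not in its coding sequence.

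Kcnj11 and Scn3b fell in the Wnt5a libraries, and no member rose (limma, Benjamini-Hochberg adjusted p under 0.05). Those 2 are 3.03% of the 66 described genes. Over all genes tested 0.672% were lower and 1.38% higher by the same rule. edgeR on the recovered reads of the same libraries called the same 2 members lower and none higher, against 0.664% and 1.33% of all genes. The adjusted p of Scn3b was 0.0497 by edgeR, just inside the threshold. Kcnj11, the pore of the ATP-sensitive potassium channel, and its partner Abcc8, the sulfonylurea receptor, had log2 differences of -1.01 and -1.03. Scn3b, an accessory beta subunit of sodium channels, had one of -0.92. Most differences were small, and 44 of the 66 genes differed by less than 1.2-fold. Of the 6 that differed by 1.5-fold or more, Kcnc4, Kcnn3, Cacng7 and Cacna1e did not pass the test, with log2 differences of 1.30, -0.72, 0.70 and -0.60.

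**Figure D1:**
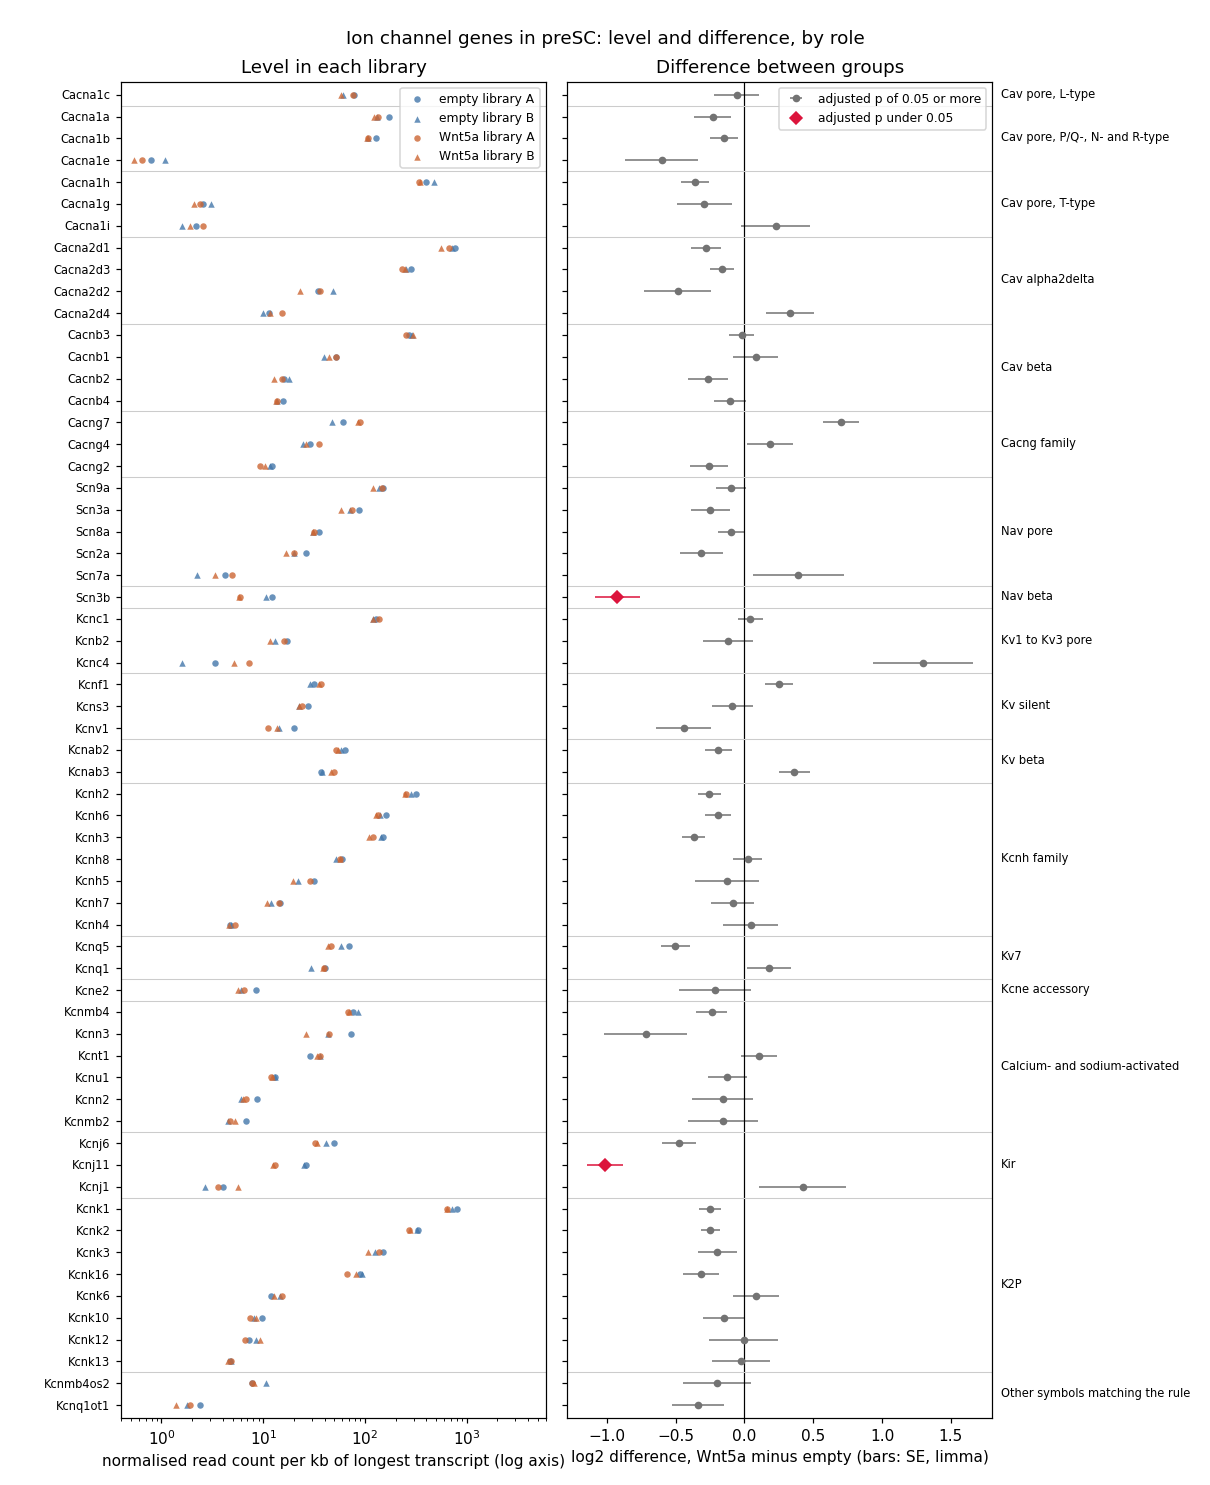
Left, normalised read count per kb of longest transcript (log axis) for 61 of the 66 genes in the 4 libraries, grouped by role. Right, log2 difference between Wnt5a and empty with its standard error, where diamonds mark Kcnj11 and Scn3b, the members with an adjusted p under 0.05.

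Every Wnt5a sample was deeper than every empty sample. Samples held 7526676 to 8181010 reads in the empty group and 8743431 to 8859862 in the Wnt5a group, and libraries 30220749 to 35315408. The RNA of Wnt5a itself differed by 3.38 on the log2 scale (122 ± 31.4 against 1279 ± 325; SD, n = 2). All 10 genes of a neuroendocrine marker list, Chga among them, were well detected, with a summed value of 58830 to 62221 in samples with the empty vector and 53314 to 57085 in those with Wnt5a. Of the 10, 9 were lower in Wnt5a, beside 49.3% of all genes. Scg2, a secretory granule protein, was the 1 that passed the test (log2 difference -0.73, adjusted p = 0.012 by limma), beside 0.672% of all genes lower by that rule. Scg2 and Resp18, another of the 9, lie on chromosome 1, where the median log2 difference was -0.17. In bulk RNA, fewer cells of a type and less RNA per cell cannot be told apart.

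Among inward rectifiers, 3 of 14 matched genes were described. Kcnj11, on chromosome 7, was at 83.5 and 79.4 in empty libraries A and B and at 40.9 and 38.9 in Wnt5a libraries A and B. By sample the lowest, median and highest values were 59.3, 83.0 and 93.9 in empty and 34.8, 39.3 and 49.98 in Wnt5a, so the groups did not overlap. Here and below, the 8 samples of a group are 2 libraries, so samples without overlap are not 8 separate replicates. Of all genes tested, 5.95% were apart in this way as lower and 6.45% as higher. The log2 difference was -1.01 (SE 0.13, adjusted p = 0.017 by limma), from 81.5 ± 2.91 to 39.9 ± 1.39 (SD, n = 2). The call rested on few reads, 303 and 312 with the empty vector against 174 and 166 with Wnt5a, and without Wnt5a library B the adjusted p was 0.064 at a log2 difference of -0.98. With no filter on low values it was also 0.064.

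The ATP-sensitive channel is built from Kcnj11 and a sulfonylurea receptor, and in pancreatic beta cells it ties membrane potential to glucose. Abcc8, the receptor found in endocrine cells, belongs to the partner lists and not to the members. It was at 131.8 and 133.2 in empty and at 67.1 and 62.1 in Wnt5a libraries. Its log2 difference was -1.03 (SE 0.12, adjusted p = 0.0095 by limma), and its samples, 121 to 144 in empty and 54.3 to 76.6 in Wnt5a, did not overlap. Abcc9, the other sulfonylurea receptor, had a mean of 5.28 in empty and 3.17 in Wnt5a and was not tested.

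Kcnj11 and Abcc8 are neighbours on chromosome 7, with no protein-coding gene between them in the RefSeq order for GRCm38.p6. Of the genes beside the pair, Nomo1, next to Kcnj11, had a log2 difference of -0.08 (adjusted p = 0.786 by limma). Ush1c, next to Abcc8, had 3.59 normalised reads or fewer in every library and was not tested. Beyond Nomo1 lay Abcc6, with 5.87 or fewer in every library and not tested, and then Ccdc114. The log2 difference of Ccdc114 was 0.07 (adjusted p = 0.871 by limma). Neither Nomo1 nor Ccdc114 passed the test. The counting's use of strand is not given in the sources used here, so reads of overlapping or antisense genes cannot be told apart.

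Kcnj6, a G protein-gated inward rectifier, was at 181 and 151 in empty and at 116 and 121 in Wnt5a libraries, with a log2 difference of -0.47 (SE 0.12, adjusted p = 0.127 by limma). Its samples ran from 135 to 188 in empty and from 95.0 to 131 in Wnt5a and did not overlap. Kcnj1, a kidney-type inward rectifier, lay at 10.3 ± 3.02 and 14.2 ± 4.46 (SD, n = 2), close to the minimum. Kcnj5, a partner of G protein-gated channels, was just outside at a mean of 6.72.

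**Figure D2:**
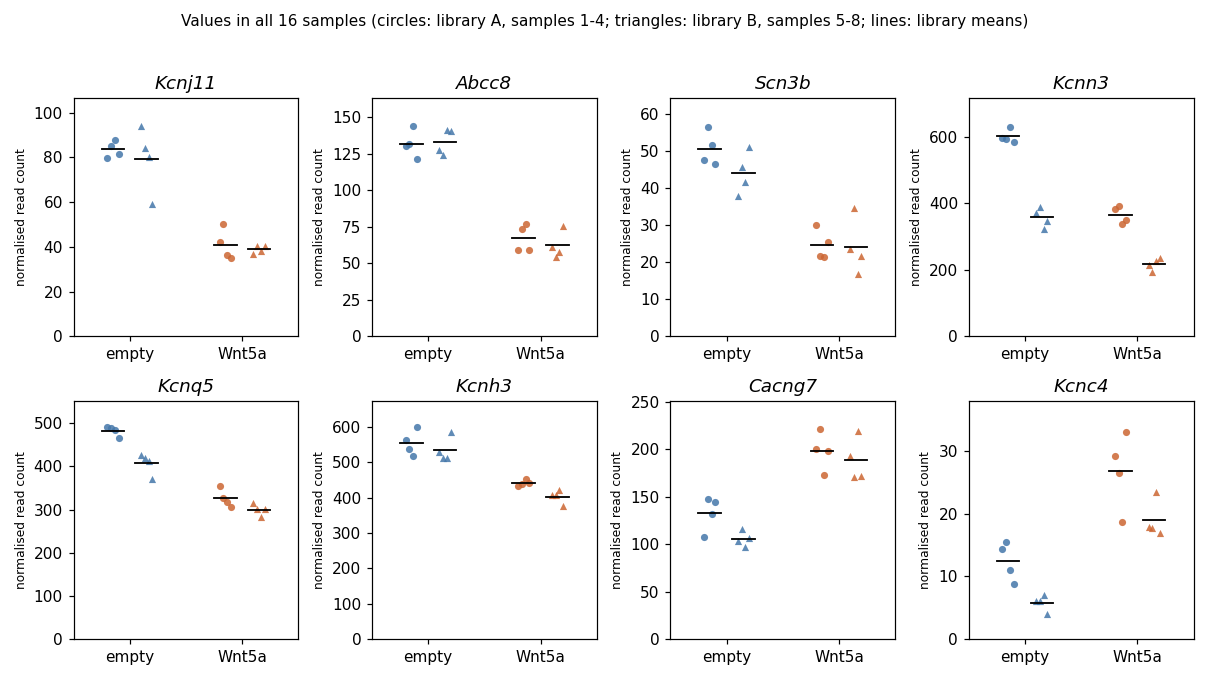
Normalised read count in all 16 samples for 8 genes, with circles for library A, triangles for library B and bars for library means. The groups are apart for Kcnj11, Abcc8, Scn3b, Kcnq5, Kcnh3, Cacng7 and Kcnc4, whereas for Kcnn3 the samples of empty library B lie among those of Wnt5a library A.

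Scn3b was the one sodium channel beta subunit of 4 that was described. It was at 50.5 and 44.1 in empty and at 24.7 and 24.1 in Wnt5a libraries. Samples ran from 37.8 through a median of 46.9 to 56.4 in empty and from 16.8 through 22.6 to 34.6 in Wnt5a, without overlap. The log2 difference was -0.92 (SE 0.16, adjusted p = 0.048 by limma), just inside the threshold, and leaving out Wnt5a library A or B raised the adjusted p to 0.129 or 0.179. With the median difference of each chromosome removed it was 0.056, and with no filter on low values 0.126.

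Of 10 genes for the sodium channel pore, which carries the upstroke of action potentials, 6 were described and none passed the test. Scn9a, the channel of pain-sensing neurons, had the highest level per length of the 6, 139 per kb, at 1408 ± 77.5 in empty and 1321 ± 185 in Wnt5a (SD, n = 2). Its log2 difference was -0.10 (adjusted p = 0.757 by limma). Scn3a, prominent in the embryonic brain, was at 755 ± 103 and 638 ± 112 (SD, n = 2), or 72.9 per kb, with a log2 difference of -0.25 (adjusted p = 0.484 by limma). The pore genes Scn8a, Scn2a and Scn7a, had log2 differences of -0.09, -0.31 and 0.39. In all, 5 of the 6 pore genes lay below 0, with a median of -0.10.

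Of the calcium channel pore genes, Cacna1h had the highest level per length. This T-type subunit opens near the resting potential. It was at 3285 and 3949 in empty and at 2804 and 2824 in Wnt5a libraries, 391 per kb on average. Samples ran from 3257 to 3995 in empty and from 2748 to 2916 in Wnt5a and did not overlap, with a log2 difference of -0.36 (SE 0.10, adjusted p = 0.150 by limma). The other T-type genes, Cacna1g and Cacna1i, were near the minimum, at 23.3 ± 2.99 and 18.5 ± 4.24 in empty and at 18.9 ± 1.84 and 21.8 ± 4.67 in Wnt5a (SD, n = 2).

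The high-voltage-activated pore genes include those that trigger release at synapses. Cacna1a, of the P/Q-type channel, was at 1206 ± 229 in empty and 1019 ± 78.5 in Wnt5a, and Cacna1b, of the N-type channel, at 1139 ± 150 and 1024 ± 8.41 (SD, n = 2). Their log2 differences were -0.23 and -0.15 (adjusted p = 0.486 and 0.570 by limma). Cacna1c, the L-type subunit of heart and smooth muscle, was at 912 ± 158 and 881 ± 176 (SD, n = 2), a log2 difference of -0.05 within the spread between libraries. It was the 1 described L-type gene of 3, and Cacna1d, the L-type gene of many endocrine cells, had at most 1 read in any library. Cacna1e, of the R-type channel, was just above the minimum at 13.9 ± 2.96 and 8.80 ± 1.18 (SD, n = 2). Its mean in Wnt5a was under 10, so it was tested only because of its empty level. With the median difference of each chromosome removed its log2 difference was -0.43 (adjusted p = 0.626 by limma).

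All 4 alpha2delta genes were described. Cacna2d1, the binding site of gabapentin, was at 5670 and 5331 in empty and at 4982 and 4109 in Wnt5a libraries, or 676 per kb on average. Samples ran from 5259 to 5800 in empty and from 3974 to 5026 in Wnt5a and did not overlap, with a log2 difference of -0.28 (SE 0.11, adjusted p = 0.268 by limma). Cacna2d2 varied more between libraries of a group than between groups: 198 and 280 in empty, 212 and 134 in Wnt5a. Cacna2d3 had a log2 difference of -0.16 and Cacna2d4 one of 0.33 (adjusted p = 0.449 and 0.427 by limma).

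Among the 4 beta subunits, which help bring the pore to the membrane, Cacnb3 stood highest per length at 276 per kb. It was at 760 ± 37.3 in empty and 750 ± 73 in Wnt5a (SD, n = 2), a log2 difference of -0.02. Cacnb1, the skeletal muscle form, had a log2 difference of 0.08 and Cacnb2, prominent in the heart, one of -0.26. The Cacng genes encode gamma subunits, of which some, Cacng7 among them, serve AMPA-type glutamate receptors. Cacng7, also on chromosome 7, was at 132.9 and 105.7 in empty and at 198.0 and 188.9 in Wnt5a libraries. Samples ran from 97.4 to 147 in empty and from 171 to 222 in Wnt5a and did not overlap. The log2 difference was 0.70 (SE 0.13, adjusted p = 0.059 by limma), so it missed the threshold. Cacng4 and Cacng2, the other described genes of this family, had log2 differences of 0.19 and -0.26. DESeq2 on the recovered reads called Cacng7 higher, the 1 member so called, against 2.53% of all genes.

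K2P genes encode leak channels that set the resting potential, and 8 of 11 were described. Kcnk1, a weakly inward-rectifying leak channel, had the highest level per length of all members, 698 per kb. It was at 1787 and 1605 in empty and at 1416 and 1431 in Wnt5a libraries. The groups did not overlap, and the log2 difference was -0.25 (SE 0.08, adjusted p = 0.191 by limma). Kcnk2, opened by stretch and lipids, was next among the potassium genes at 301 per kb, with values of 1169 ± 22.6 and 985 ± 16.6 (SD, n = 2). Its log2 difference was -0.25 (SE 0.07, adjusted p = 0.150 by limma), again with no overlap. Kcnk2 lies on chromosome 1, and with the median difference of each chromosome removed its log2 difference was -0.07 (adjusted p = 0.788). Kcnk3, closed by acid, and Kcnk16, of pancreatic islets, had log2 differences of -0.20 and -0.32 (adjusted p = 0.594 and 0.298 by limma).

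The library values per kb of Kcnk1 and Cacna2d1, the highest 2 members, overlapped. Cacna1h followed, with every library above those of Kcnk2. Kcnk2, Cacnb3, Kcnh2 and Cacna2d3 came next, from 301 to 255 per kb, and each overlapped its neighbours in this order. In all, 43 of the 66 genes had a mean of at least 100 normalised reads and 9 of at least 1000.

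The Kcnh family, with the ether-a-go-go and ERG channels, had 7 described members of 8. Kcnh2, the ERG channel of cardiac repolarisation, was the highest of them per length at 274 per kb, at 1260 ± 101 in empty and 1055 ± 13 in Wnt5a (SD, n = 2). Its log2 difference was -0.25 (SE 0.08, adjusted p = 0.195 by limma). Kcnh3, of the ELK group, was at 554 and 534 in empty and at 440.5 and 403 in Wnt5a libraries, with samples from 511 to 599 and from 376 to 451. The groups did not overlap, and the log2 difference was -0.37 (SE 0.08, adjusted p = 0.094 by limma). Kcnh6, another ERG channel, had a log2 difference of -0.19.

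The Kv7 genes encode the M-current, a slow brake on firing, and related channels. Kcnq5 was at 482 and 408 in empty and at 326 and 300.3 in Wnt5a libraries, with samples from 370.4 to 490.4 and from 282 to 354. The groups did not overlap, and the log2 difference was -0.50 (SE 0.11, adjusted p = 0.078 by limma). Kcnq5 lies on chromosome 1, and with chromosome medians removed it was -0.33 (adjusted p = 0.280). Kcnq1, of heart and epithelia, had a log2 difference of 0.18 (adjusted p = 0.691 by limma). DESeq2 called Kcnq5, Kcnh3 and Cacna1h lower beside Kcnj11 and Scn3b, so that it called 5 members lower (7.58%), against 1.82% of all genes.

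Of the Kv1 to Kv3 pore genes 5 of 13 were described, none of the Kv1 (Kcna) genes among them. Kcnc1, a fast Kv3 channel, was the highest per length at 126 per kb. It was at 961 ± 44 in empty and 991 ± 92.9 in Wnt5a (SD, n = 2), a log2 difference of 0.04 within the spread between libraries. Kcnc4, a low member of the same family, was at 12.4 and 5.85 in empty and at 26.8 and 19.0 in Wnt5a libraries, from 45 and 23 reads and from 114 and 81. Its samples ran from 4.09 to 15.5 and from 16.9 to 33.0 without overlap, and the log2 difference was 1.30 (SE 0.36, adjusted p = 0.144 by limma). Its mean in empty was under 10, so it was tested only because of its Wnt5a level.

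The silent Kv subunits, which open only together with other pore subunits, and the Kv beta subunits were few. Kcnf1 was at 146 ± 9.52 in empty and 174 ± 4.03 in Wnt5a, and Kcnv1 at 75.2 ± 17.7 and 54.7 ± 7.9 (SD, n = 2). Kcns3, another silent subunit, had a log2 difference of -0.09. Kcnab3, a Kv beta subunit, was at 94.2 ± 1.06 and 121.5 ± 6.79 (SD, n = 2), a log2 difference of 0.36 (SE 0.11, adjusted p = 0.179 by limma) without overlap of samples. Kcnab3 lies on chromosome 11, and with chromosome medians removed the log2 difference was 0.19 (adjusted p = 0.616). Kcnab2, of the same group, had a log2 difference of -0.19.

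Among the channels opened by calcium or sodium ions 6 of 11 were described. Kcnn3, a small-conductance channel that responds to calcium entry, was at 602 and 358 in empty and at 365 and 217 in Wnt5a libraries. The groups overlapped, and library B was below A by 0.75 on the log2 scale in each group, as large as the log2 difference between groups of -0.72 (SE 0.30, adjusted p = 0.308 by limma). A fit with a replicate block, which pairs libraries by letter, gave -0.72 for Kcnn3 with an adjusted p of 0.00075 by limma. The labels do not give that pairing beyond the sample number. Kcnmb4, an accessory subunit of the large-conductance channel, was at 132 ± 10.9 and 112 ± 1.87 (SD, n = 2). Kcnma1, the pore of that channel, had a mean of 2.49 and was not described. Kcnt1, opened by sodium ions, was at 216 ± 35.4 and 232 ± 12.4 (SD, n = 2), within the spread between libraries. Kcnmb4os2 and Kcnq1ot1, noncoding RNAs opposite Kcnmb4 and Kcnq1, had log2 differences of -0.20 and -0.34. Without strand, their reads cannot be told from those of the opposite genes.

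Across the whole set, small values below 0 were common. The log2 difference was below 0 for 49 of the 66 members (74.2%), against 49.3% of all genes, and its median was -0.15 against 0.0026. Calcium, sodium and potassium genes had medians of -0.15, -0.11 and -0.15, and 13 of 18, 6 of 7 and 30 of 41 were below 0. At an unadjusted p under 0.05, 12 members were lower (18.2%, against 7.45% of all genes) and 4 higher (6.06%, against 8.63%). Samples of the groups did not overlap for 10 members lower in Wnt5a (15.2%, against 5.95%) and 3 higher (4.55%, against 6.45%). With a 1.5-fold size asked as well, 2 were lower (3.03%, against 1.01%), Kcnj11 and Scn3b, and 2 higher (3.03%, against 1.63%), Cacng7 and Kcnc4. Kcnc4, counted among the higher members by each of these rules, met the minimum only through its Wnt5a level.

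Libraries of one group also differed from each other. Library B was below library A in both groups for 38 members (57.6%), against 36.0% of all genes, and above it in both for 8 (12.1%), against 35.3%. The median B minus A was -0.19 in empty and -0.0997 in Wnt5a on the log2 scale, beside about 0 for all genes. Without empty library A the median difference between the groups was -0.045. The part of this library difference in the small values below 0 was not tested.

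**Figure D3:**
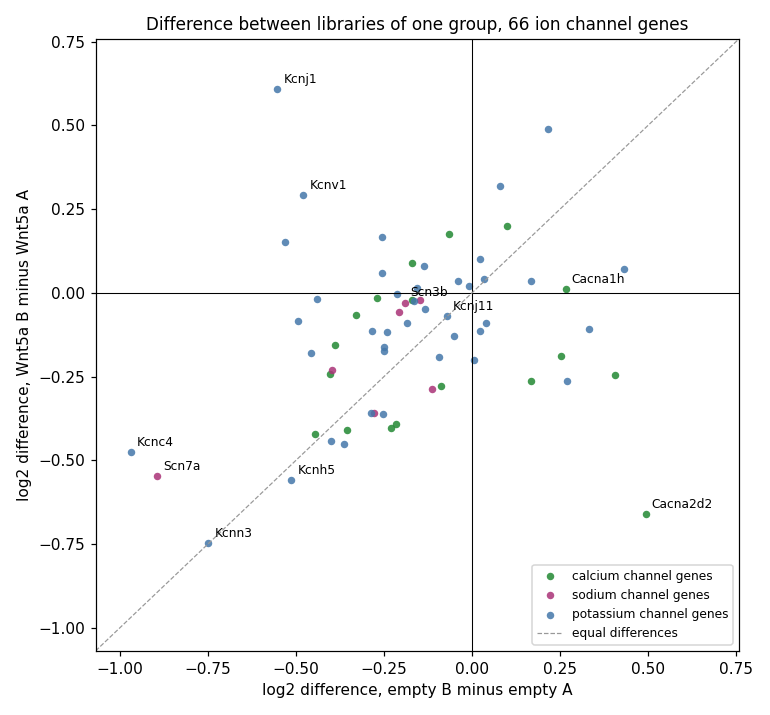
Log2 difference of library B minus library A in empty (horizontal) and Wnt5a (vertical) for the 66 genes, coloured by ion, with the dashed line for equal differences. The lower left part of the plot holds 38 genes and the upper right 8, and Kcnn3 lies on the line at -0.75 in each group.

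Medians of some chromosomes also moved between groups: -0.17 on chromosome 1, which holds 4 members, 0.17 on chromosome 11, which holds 6, and 0.36 on chromosome 19, which holds none. Off chromosomes 1 and 11, 43 of 56 members were below 0, with a median of -0.15.

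Other genes of these pathways, from lists written out by function, gave few calls. Of 10 tested partners of potassium channels, 8 were below 0, with a median of -0.26, and Abcc8 alone passed. Over all genes tested 49.3% were below 0, and 0.672% passed as lower. None passed among 18 calcium pumps and exchangers (median -0.12), 10 calcium channel regulators (-0.06), 11 sodium channel partners (-0.19), 6 sodium-potassium pump genes (-0.18) or 13 other cation channels (-0.12). Atp2b4, a plasma membrane calcium pump, came closest, at 202 ± 36.9 and 110.5 ± 21.1 (SD, n = 2), with a log2 difference of -0.87 (adjusted p = 0.068 by limma). It lies on chromosome 1, where the median log2 difference was -0.17. Nedd4l, a ubiquitin ligase of sodium channels, was next at 226 ± 11.3 and 164 ± 6.14 (SD, n = 2), with a log2 difference of -0.46 (adjusted p = 0.076 by limma). In the remaining lists the furthest from 0 among genes with a mean of at least 50 were Rims2, a release-site protein that binds calcium channels, Fxyd6, a modulator of the sodium-potassium pump, and Trpc1, a cation channel. Their log2 differences were -0.27, -0.34 and -0.35 (adjusted p = 0.272, 0.259 and 0.299 by limma).

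Rest is a repressor of neuronal genes, many channel genes included, and acts with Rcor corepressors. Rest had at most 3 reads in any library. Rcor2 rose from 109 ± 1.9 to 216 ± 12.2 (SD, n = 2; log2 difference 0.98, adjusted p = 0.0066 by limma), and with chromosome medians removed it was 0.62 (adjusted p = 0.046). Rcor2 lies on chromosome 19. It was the 1 call among 4 tested genes of that complex, beside 1.38% of all genes called higher.

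Markers of other cell types were low or uneven. Neuron markers summed to 152.7 to 190.3 in empty and 58.8 to 88.7 in Wnt5a samples, mostly from Slc17a6, a vesicular glutamate transporter. Slc17a6 fell from 146.8 ± 3.16 to 60.4 ± 9.7 (SD, n = 2), with a log2 difference of -1.28 (adjusted p = 0.0090 by limma). Gad1, the other neuron marker tested, was at 18.5 and 12.5 in empty and at 7.75 and 7.03 in Wnt5a libraries. Its log2 difference was -0.95 (adjusted p = 0.156 by limma). Rbfox3, Gad2 and Slc17a7 were at 5.35 or less in any library. Fibroblast markers summed to 327 to 636 and 235 to 263 by sample, carried by Dcn, with Col1a1 at 3.56 or less in any library. Leukocyte, endothelial, lung epithelial, glial and muscle sums were at most 21.6, 11.1, 64.0, 23.3 and 44.6 in any sample. The part of these markers in the channel differences was not tested.

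Just above the minimum of 10 lay Kcne2, Cacna1e and Kcnj1, with means of 11.3, 11.4 and 12.2, and just below it Cacng5, Kcnj5 and Kcna4, with 8.43, 6.72 and 6.65. Of the 115 matched genes 16 had fewer than 3 reads in every library. Kcnc2, a Kv3 gene under the minimum, had 0 reads in either empty library, where a count of 0 allows up to 3, and 57 and 38 reads in the Wnt5a libraries. Kcnq3, a partner of other Kv7 subunits, had 5 and 2 reads in empty and 32 and 39 in Wnt5a libraries. Kcna4, a Kv1 gene, had 14.1 and 7.13 normalised reads in empty and 2.82 and 2.58 in Wnt5a libraries. These 3 were picked out after their values were seen. Being under the minimum they entered only the limma fit with no filter, where the adjusted p was 0.019 for Kcnc2, 0.066 for Kcnq3 and 0.173 for Kcna4.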

How the data were processed

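The authors deposited 1 file per sample with a signal per gene symbol. The deposited signal is a read count divided by a single factor per sample: 100% of values were whole multiples of a step of 0.934 to 1.11 (tolerance 0.01 reads), and whole reads were recovered from it. Per the labels' protocols, polyadenylated RNA was selected with oligo-dT from 500 ng. Per the submitters' processing notes the tools include TopHat, Bowtie, HTSeq and DESeq2; the genome build is not given in the sources used here. Genes with a mean of at least 10 were compared with limma 3.58.1 (R 4.3.3) on log2(value + 1) of 2 libraries per group, which understates the change of low genes, with Benjamini-Hochberg adjustment over 12357 genes. edgeR 4.0.16 and DESeq2 1.42.0 on the recovered reads were alternatives, and the fits were tested on simulated data. Length is that of the longest GENCODE M21 transcript; chromosomes are from RefSeq. Intervals and limits of counts cover counting error only.

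Named were members that passed the test, the 3 highest per kb of each role, the 5 largest rises and falls among means of at least 50, members whose 8 samples per group did not overlap at 1.5-fold or more, members next to the minimum, and, of each partner list, the genes that passed or the largest difference. Some members that this rule names are not reported here. Members and lists were chosen with earlier results of these data known.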

Additional observations from a re-analysis of the deposited data

Results flagged for a closer look

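In 3 of 102 groups of 8 samples checked, 1 sample stood apart from the rest by Dixon's criterion, which chance meets in about 1 of 20. For Kcnj11 the lowest empty sample, of library B, was at 59.3, still above the highest Wnt5a sample at 49.98. For Cacna1i the highest Wnt5a sample, of library A, was at 34.7, and for Kcne2 the highest empty sample, of library A, at 21.0.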

How the results depend on the processing

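Of the 66 channel genes 2 passed the test (2.06% of all genes did). The number was 1 with a pseudocount of 0.1 (all genes 1.95%), 1 with a minimum of 50 (0.947%), 1 with chromosome medians removed (1.67%) and 6 with DESeq2 (4.35%). With no filter none of the 66 passed, with Kcnj11 at an adjusted p of 0.064, and 1 of the 115 matched genes did, Kcnc2 (0.827%). With the 16 samples as replicates, mostly sampling noise, it was 31 (47.0%, against 35.4% of all genes). The fit with the replicate block gave 19 (3 higher, 16 lower; 28.8%, against 17.0%), and 40 with 16 samples (60.6%, against 48.7%). By the labels, same-numbered samples share only a number. Deviations of same-numbered libraries from their group means correlated across genes (Pearson 0.44, Spearman 0.53), with 2 pairs only. Whether the libraries were paired in handling is not given and was not tested. Leaving out each library in turn gave 0 calls without Wnt5a library B (all genes 1.12%), 1 without Wnt5a library A (1.34%), 6 without empty library A (3.99%) and 11 without empty library B (8.89%), and a median log2 difference from -0.229 to -0.045. Members apart by 1.5-fold, 4 in number (all genes 2.65%), were 7 of 115 with no filter (2.49%), 2 with a minimum of 50 (1.80%), 2 at 2-fold (1.35%) and 4 to 7 when a library was left out (3.09% to 4.85%).

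With chromosome medians removed the sign turned for Cacnb1 (-0.089), and Cacna1g moved to -0.46. When a library was left out, log2 differences ran from -0.259 to 0.152 for Cacna1c, -0.121 to 0.283 for Cacnb1, -0.120 to 0.079 for Cacnb3, -0.012 to 0.390 for Cacng4, -0.054 to 0.138 for Kcnc1, -0.441 to 0.015 for Kcne2, -0.415 to 0.015 for Kcnmb4os2, -0.229 to 0.056 for Kcns3, -0.060 to 0.273 for Kcnt1 and -0.242 to 0.045 for Scn9a. The causes were not tested. Abcc8 passed under every alternative run. For the named genes, the other alternatives gave the same direction and call in 545 comparisons, gained a call in 92, lost one in 4 and turned the sign in 1. Most of the 92 came from the fits with 16 samples as replicates or with the replicate block, whose limits are given above. They do not add to the calls of the main fit. Depth limits the low members: Kcnj11, Scn3b and Kcnc4 rest on 23 to 312 reads per library.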
